A study of Solanum lycopersicum with 3 samples.

Results

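Among the miRNAs counted in tomato (Solanum lycopersicum) ovaries, 7 belong to families known for their response to copper, phosphate or sulfate supply. They were taken by name from 634 listed mature miRNAs, of which 125 are known and 509 predicted, as every entry of the miR395, miR397, miR398, miR399 and miR408 families. The copper families gave 4 entries (sly-miR397-3p, sly-miR397-5p, sly-miR398a and sly-miR408), the phosphate family 2 (sly-miR399 and sly-miR399b) and the sulfate family 1 (sly-miR395a). A further phosphate family, miR827, was looked for by name and gave no entry, so the phosphate group rests on miR399 alone. Ovaries of cultivar UC82 came from 3 groups, each sequenced as 1 small RNA library from a pool of ovaries. AGL6sil ovaries had received 5 µg of double-stranded RNA (dsRNA) against AGL6, a MADS-box transcription factor, and IAA9sil ovaries 5 µg of dsRNA against IAA9, an auxin signalling repressor. The ctrl ovaries were mock-treated. In AGL6sil and IAA9sil the dsRNA was bound to layered double hydroxide particles (LDHs) and injected into the flower pedicel, and ctrl received the particles alone. All flowers were emasculated, kept from pollination and sampled 5 days after treatment. The labels of all groups give the ovaries as pre-anthesis, which is before the flower opens, and the label of ctrl also calls its ovaries detached. The silencing is thus transient and comes from outside the plant, in a wild-type background that all groups share.

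Counted miRNA reads summed to 1460919 for AGL6sil, 1053000 for IAA9sil and 1038064 for ctrl, and sly-miR162 alone took 44.2%, 41.8% and 34.8% of them in that order. Only mature miRNAs were counted, so neither the transcripts of AGL6 and IAA9 nor marker genes of the ovary could be checked. With 1 library per group there is no replicate check, no test was made, and each difference compares these libraries and not the treatments in general. Fewer cells of a type and less RNA per cell cannot be told apart in whole ovaries.

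These families are among the best known links between plant nutrition and small RNAs. In Arabidopsis, copper shortage activates the transcription factor SPL7, which raises miR397, miR398 and miR408, and these in turn lower copper proteins: miR398 acts on Cu/Zn superoxide dismutases, miR397 on laccases, and miR408 on plantacyanin and laccases. Sulfate shortage raises miR395, whose targets are ATP sulfurylases, the first enzymes of sulfate assimilation, and a sulfate transporter. Phosphate shortage raises miR399, which acts on PHO2, a ubiquitin-conjugating enzyme that restrains phosphate uptake and transport.

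Mature sequences were at hand for 3 of the 7 miRNAs, and they are shown with the seed, bases 2 to 8 from the 5′ end, in capitals, because these 3 carry the calls described below. The tables they were read from list the miRNAs that the study chose for their differences.
sly-miR398a: uAUGUUCUcaggucgccccug
sly-miR397-3p: uCAACGCUaaacucgaucaug
sly-miR395a: cUGAAGUGuuugggggaacucc
The first pair are 21 bases long and sly-miR395a is 22 bases long, and the 3 seeds differ from each other. The tomato gene table of RefSeq (assembly SLM_r2.1) holds a gene of the same name for 4 of the 7: MIR398a on chromosome 11, MIR408 on chromosome 1, MIR399 on chromosome 3 and MIR395a on chromosome 5. MIR395a and a second gene, MIR395b, are neighbours with 0 other annotated genes starting between them. The build used for mapping the reads is not given in the sources used here, so no coordinates are given.

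As a sum, the 7 miRNAs held 1.84% of the counted reads in AGL6sil (95% Clopper-Pearson interval 1.82 to 1.86), 0.227% in IAA9sil (0.218 to 0.237) and 0.369% in ctrl (0.357 to 0.381). These intervals, like all those below, cover counting error alone, since PCR copies of a molecule were not told apart. The make-up of this share differed between the libraries. Copper miRNAs were 73.0% of it for AGL6sil, 62.2% for IAA9sil and 31.3% for ctrl. Most copper reads were of sly-miR398a alone: 19338 of 19655 in AGL6sil, 1326 of 1489 in IAA9sil and 988 of 1197 in ctrl. The part of sly-miR395a was 27.0%, 37.8% and 68.6% in the same order. The phosphate miRNAs contributed 2 reads to AGL6sil, 0 to IAA9sil and 4 to ctrl.

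**Figure D1:**
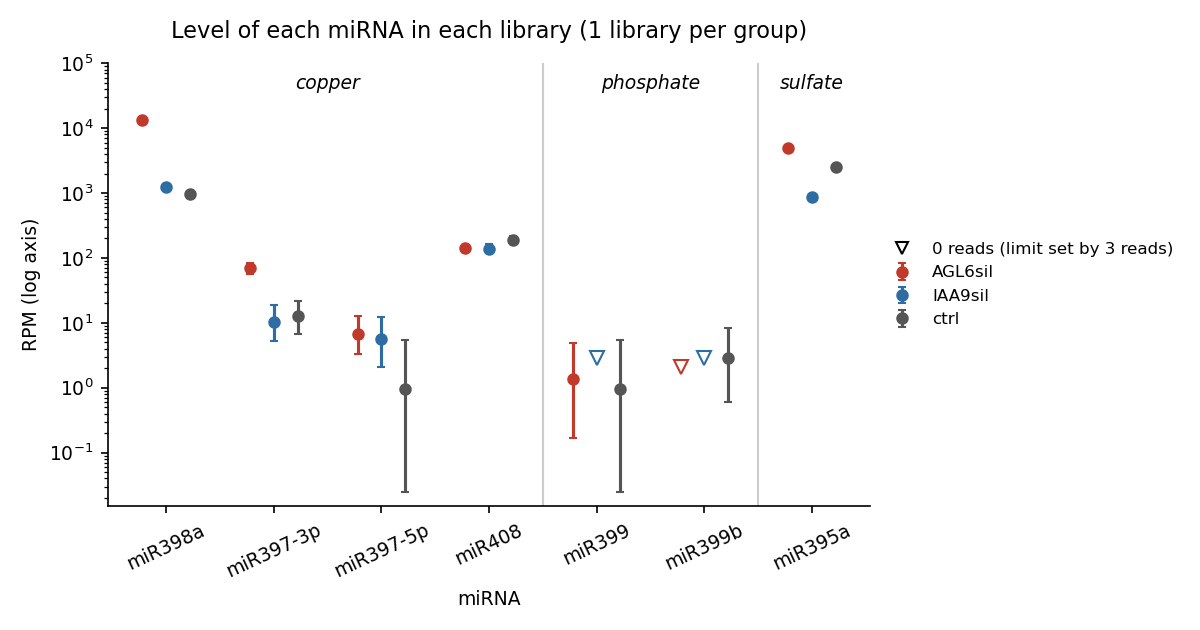
Level of the 7 miRNAs in each library, in reads per 1000000 counted miRNA reads (RPM) on a log axis, with 95% Clopper-Pearson counting intervals (smaller than the symbol for the abundant miRNAs). Each point is 1 library, and an open triangle marks a library with 0 reads, at the level that 3 reads would give. sly-miR398a stands at 13237 in AGL6sil, 1259 in IAA9sil and 952 in ctrl, while both miR399 entries stay below 3 in every library.

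AGL6sil held 19338 reads of sly-miR398a, IAA9sil 1326 and ctrl 988. In reads per 1000000 counted miRNA reads (RPM) this is 13237, 1259 and 952. The high library is AGL6sil, and the counting intervals of the 3 levels do not overlap. By abundance it was the 11th of the 634 miRNAs in AGL6sil, the 41st in IAA9sil and the 46th in ctrl.

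sly-miR397-3p was a rare miRNA, with 102 reads from AGL6sil, 11 from IAA9sil and 13 from ctrl (69.8, 10.4 and 12.5 RPM). Here too AGL6sil was the high library, while IAA9sil and ctrl had overlapping intervals. It passed the limit of 50 reads in total through AGL6sil alone, which holds 102 of its 126 reads. Its partner from the other arm of the precursor, sly-miR397-5p, had 10 reads from AGL6sil, 6 from IAA9sil and 1 from ctrl. Together the arms had 112, 17 and 14 reads, of which the 5p arm was 8.93% in AGL6sil (interval 4.36 to 15.8), 35.3% in IAA9sil (14.2 to 61.7) and 7.14% in ctrl (0.181 to 33.9). The ratio of the 3p arm to the 5p arm was 5.56-fold higher in AGL6sil than in IAA9sil, with a wide interval that excludes 1 (1.36 to 20.8). Against ctrl the interval of this ratio includes 1 for AGL6sil (0.785, interval 0.0168 to 6.41) and for IAA9sil (0.141, interval 0.00285 to 1.53), where ctrl had a single 5p read. In Arabidopsis the strand of miR397 that acts on laccases comes from the 5p arm, which here was the less abundant one in each of the 3 libraries.

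sly-miR408 did not show this pattern, with 205 reads from AGL6sil, 146 from IAA9sil and 195 from ctrl. Its levels of 140 RPM in AGL6sil and 139 RPM in IAA9sil had overlapping counting intervals (122 to 161 and 117 to 163), and the 188 RPM of ctrl (162 to 216) overlapped that of IAA9sil only narrowly and that of AGL6sil not at all. On this scale sly-miR408 was the only copper miRNA with at least 50 reads that was lower in AGL6sil than in ctrl, and under 3 of the 7 scalings given below it was higher.

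To compare libraries of different size, counts were divided by the median count over all 634 miRNAs relative to ctrl, which scales AGL6sil by 2.13 and IAA9sil by 1.16, and given as log2 ratios. A miRNA was called where it had at least 50 reads over the 3 libraries and a log2 ratio of at least 1.5 in size, which is 2.83-fold. Of the 7 miRNAs, 4 passed the read limit (sly-miR398a, sly-miR397-3p, sly-miR408 and sly-miR395a) and 3 did not.

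In AGL6sil against ctrl, 2 of the 4 were called higher and 0 lower. Over all 374 miRNAs past the read limit, 7.75% were called higher and 13.6% lower, and over the 91 known ones 4.4% were called higher and 42.9% lower. Both were copper miRNAs. sly-miR398a was 9.19-fold higher (log2 ratio 3.20, interval 3.11 to 3.29), and sly-miR397-3p 3.69-fold higher (1.88, interval 1.04 to 2.84). Ranked by their ratio in AGL6sil, they stood first and second of the 91 known miRNAs, and 7th and 17th of all 374. Close behind sly-miR397-3p lay sly-miR9474-5p at 1.84 and sly-miR482a at 1.79, which are outside the copper families. The interval of sly-miR397-3p reaches below the threshold of 1.5, and it is counted here only through its reads in AGL6sil. Without it, 1 of 3 was called higher. sly-miR408 was lower by a log2 ratio of −1.02 (interval −1.31 to −0.73) and was not called, and 40 known miRNAs ranked above it. sly-miR397-5p, under the read limit, had a log2 ratio of 2.23 with an interval that includes 0 (−0.58 to 7.67).

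In IAA9sil against ctrl, 0 of the 4 were called higher and 1 lower, beside 2.41% and 4.55% of all 374 miRNAs and 0% and 6.59% of the 91 known ones. The miRNA called was sly-miR395a, described below. None of the copper miRNAs past the read limit was called. sly-miR398a had a log2 ratio of 0.21 (interval 0.09 to 0.33), which is 1.16-fold. sly-miR397-3p had a ratio of −0.46, with an interval of −1.76 to 0.82 that includes 0. sly-miR408 was 1.55-fold lower (−0.63, interval −0.95 to −0.32). sly-miR397-5p, under the read limit with 6 reads against 1, had a ratio of 2.37 with an interval that includes 0 (−0.67 to 7.89). This comparison and the one of AGL6sil share 1 ctrl library, and a chance value there enters both.

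The silenced libraries were also compared with each other, which leaves out ctrl apart from its place in the read limit. Here 3 of the 4 were called higher in AGL6sil than in IAA9sil and 0 lower, beside 8.56% and 12.8% of all 374 and 4.4% and 35.2% of the 91 known miRNAs. sly-miR398a was 7.95-fold higher in AGL6sil (log2 ratio 2.99, interval 2.91 to 3.07), sly-miR397-3p 5.06-fold (2.34, interval 1.44 to 3.39) and sly-miR395a 4.38-fold (2.13, interval 2.03 to 2.23). They stood in places 1, 2 and 3 among the known miRNAs. The interval of sly-miR397-3p reaches below the threshold, and it is counted here only through its reads in AGL6sil. Without it, sly-miR398a and sly-miR395a were still called higher, and sly-miR408 was not called. sly-miR408 had a ratio of −0.38 (−0.70 to −0.07), but its direction was not stable. Over the 7 scalings given below it lay between −0.38 and 0.89, above 0 under 4 and below 0 under 3.

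**Figure D2:**
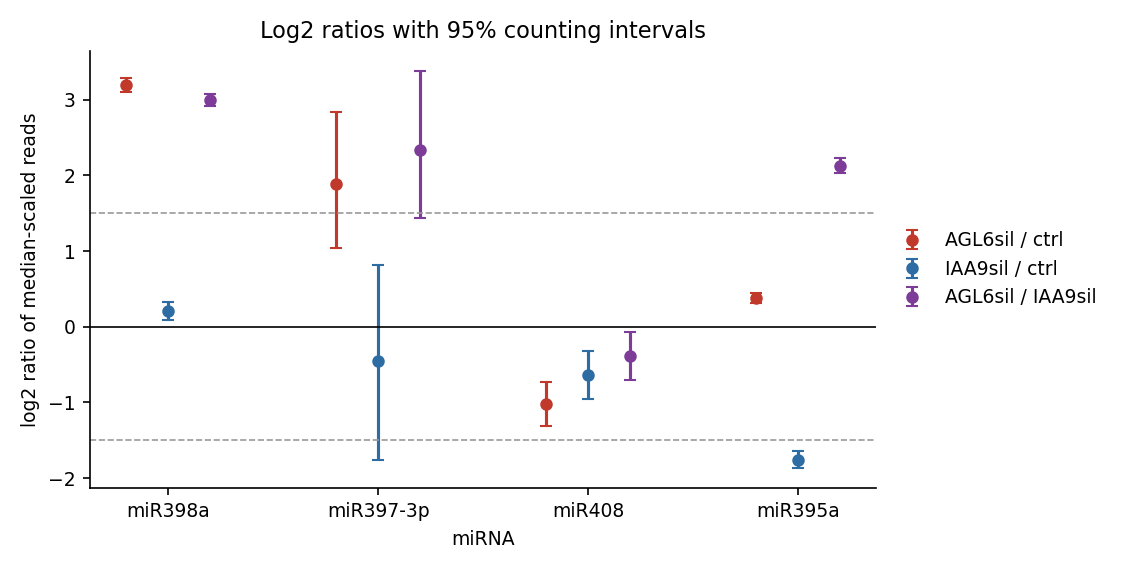
Log2 ratios of median-scaled reads for the 4 miRNAs with at least 50 reads, for AGL6sil to ctrl, IAA9sil to ctrl and AGL6sil to IAA9sil. Bars are 95% Clopper-Pearson counting intervals of the pair of counts, and dashed lines mark a log2 ratio of 1.5 in size. sly-miR398a lies near 3 in both comparisons with AGL6sil on top and at 0.21 in IAA9sil to ctrl, and sly-miR395a lies above 0 in AGL6sil to ctrl and at −1.76 in IAA9sil to ctrl.

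**Figure D3:**
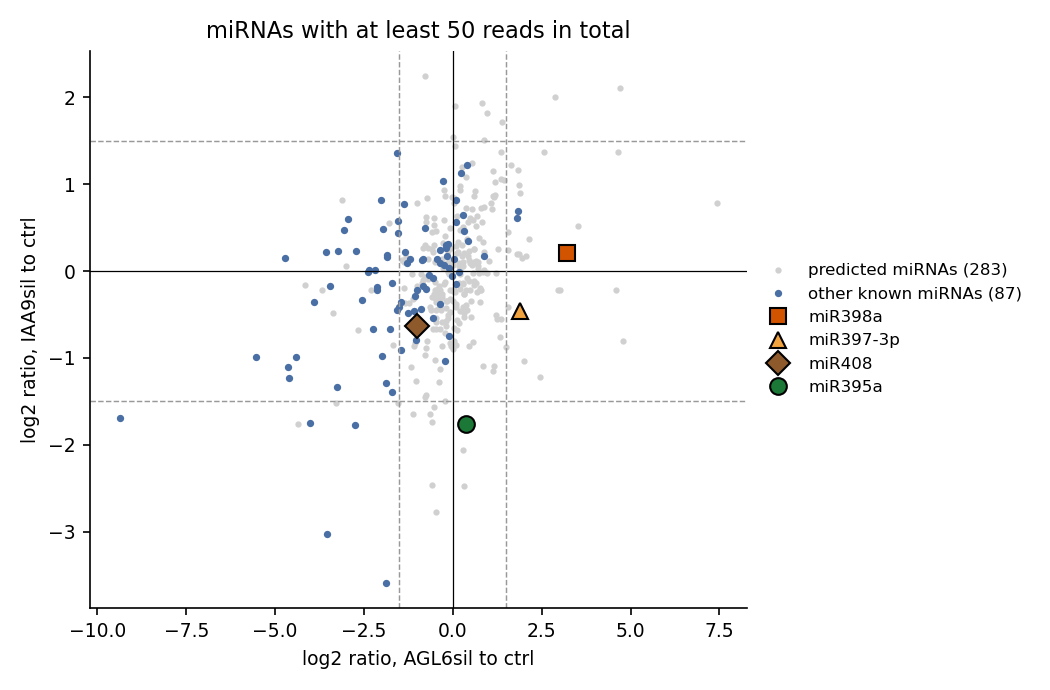
Log2 ratio in IAA9sil to ctrl (vertical axis) against that in AGL6sil to ctrl (horizontal axis) for the 374 miRNAs with at least 50 reads in total, with counts of 0 taken at 3 reads and dashed lines at 1.5 in size. Both axes share the ctrl library. sly-miR398a is the known miRNA farthest to the right, sly-miR397-3p is second, and sly-miR395a lies low with a ratio above 0 in AGL6sil.

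The size of the differences depends on the scale chosen. Over 7 scalings the factor of AGL6sil relative to ctrl ranged from 0.762 to 2.13 and that of IAA9sil from 0.916 to 1.16, so the ratios moved more in AGL6sil. The only call that a scaling removed was that of sly-miR395a in IAA9sil, at −1.41 on the clean-read scale. A call of sly-miR395a as higher in AGL6sil than in ctrl was added under 2 scalings. Its ratio was 1.86 with the median of known miRNAs and 1.69 with the clean reads. The log2 ratio of sly-miR398a in AGL6sil against ctrl lay between 3.20 and 4.68, that of sly-miR397-3p lay between 1.88 and 3.36, and neither fell under the threshold with any scale. The direction of sly-miR408 was not stable. In AGL6sil against ctrl it was below 0 under 4 scalings and above 0 under 3, between −1.02 and 0.46. In AGL6sil against IAA9sil its direction changed with the scale as well. In IAA9sil against ctrl each of the 4 miRNAs kept its direction under the 7 scalings. For sly-miR397-3p this rests on 11 reads against 13, with an interval that includes 0, so no direction can be read from it.

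**Figure D4:**
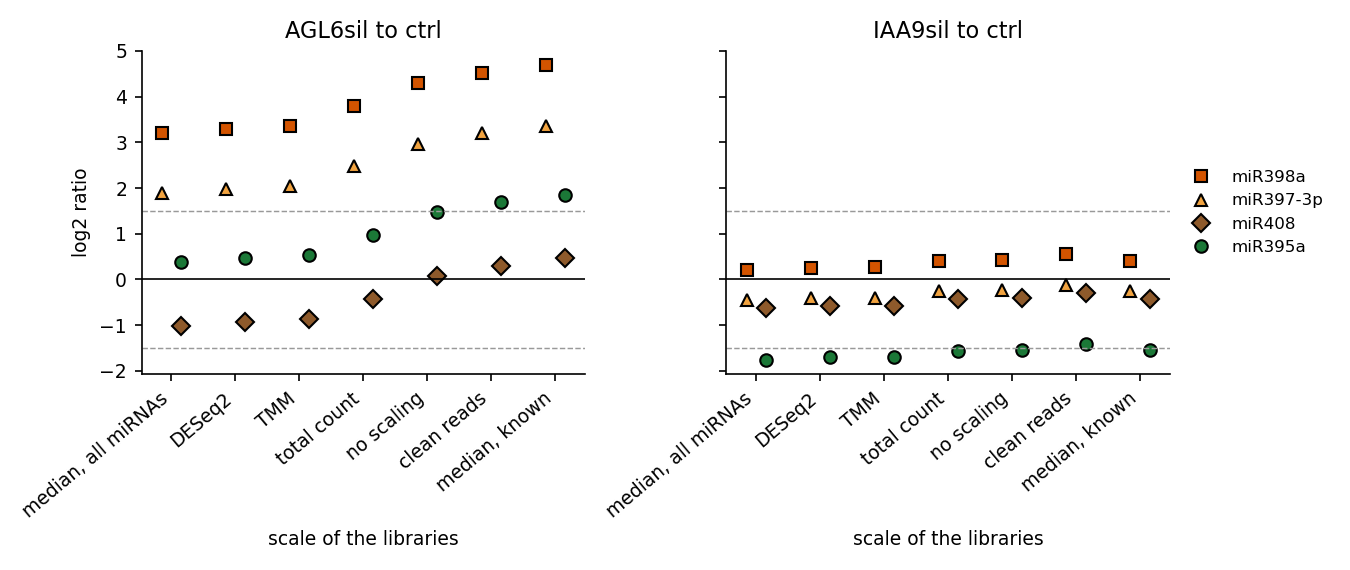
Log2 ratio of the 4 miRNAs under 7 ways of scaling the libraries, for AGL6sil to ctrl on the left and IAA9sil to ctrl on the right. Dashed lines mark 1.5 in size. In AGL6sil all 4 shift together with the scale, sly-miR398a from 3.20 up to 4.68, and sly-miR408 crosses 0, while in IAA9sil the shifts are small.

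Ratios of miRNAs within a library need no scaling. For each read of sly-miR408 there were 94.3 reads of sly-miR398a in AGL6sil (interval 82.2 to 108.8), 9.08 in IAA9sil (7.65 to 10.9) and 5.07 in ctrl (4.34 to 5.94). Relative to sly-miR408, sly-miR398a was therefore 18.6-fold higher in AGL6sil than in ctrl (interval 15.1 to 23.0) and 1.79-fold higher in IAA9sil than in ctrl (1.42 to 2.27). sly-miR397-3p relative to sly-miR408 was 7.46-fold higher in AGL6sil than in ctrl (3.997 to 14.9), and for IAA9sil against ctrl the interval of this ratio includes 1 (1.13, interval 0.444 to 2.82). Within the copper group, then, sly-miR408 stood apart from sly-miR398a in AGL6sil whatever the scale. sly-miR397-3p lay on the side of sly-miR398a, but it is counted here only through its reads in AGL6sil and adds no support. Between sly-miR398a and sly-miR397-3p the difference was smaller. Their ratio was 2.49-fold higher in AGL6sil than in ctrl (1.28 to 4.48), and for AGL6sil against IAA9sil its interval includes 1 (1.57, interval 0.759 to 2.94).

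**Figure D5:**
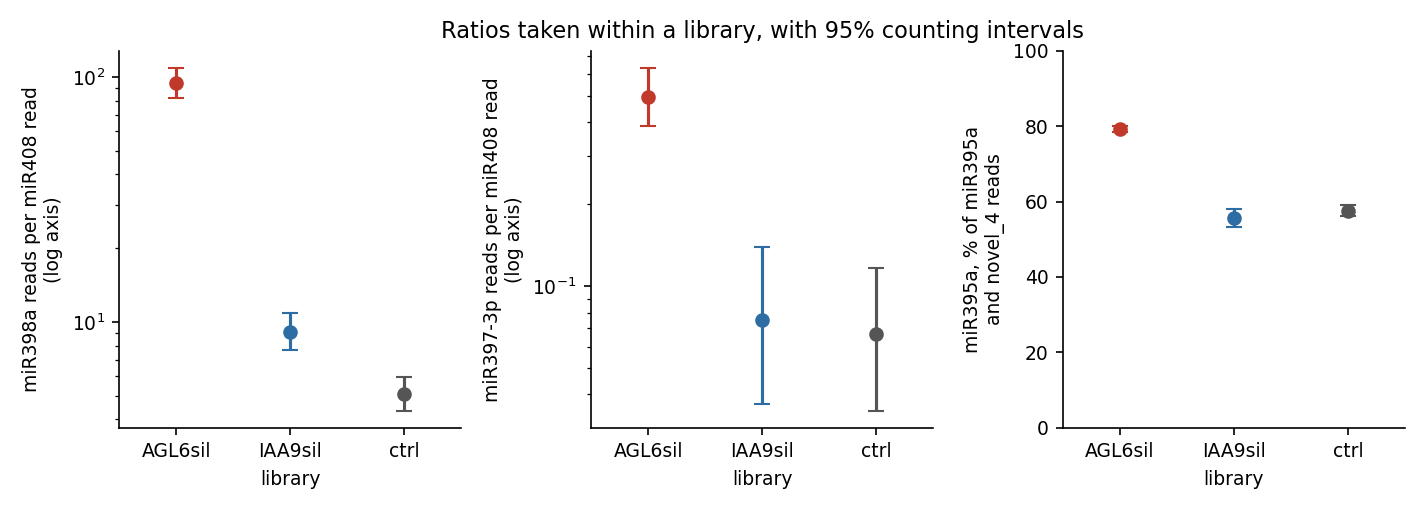
Reads of sly-miR398a (left) and sly-miR397-3p (middle) per read of sly-miR408 on log axes, and sly-miR395a as a percentage of the reads of sly-miR395a and novel_4 (right), in each library. Bars are 95% Clopper-Pearson counting intervals. AGL6sil lies above IAA9sil and ctrl in each panel, with 94.3, 9.08 and 5.07 reads of sly-miR398a per read of sly-miR408 and with shares of 79.3%, 55.7% and 57.6% on the right.

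sly-miR395a, the sulfate miRNA, had 7258 reads from AGL6sil, 904 from IAA9sil and 2628 from ctrl (4968, 859 and 2532 RPM). Its levels had 3 separate counting intervals, highest in AGL6sil and lowest in IAA9sil. In ctrl it was the most abundant of the 7 miRNAs, with 0.376 reads of sly-miR398a for each of its own, against 2.66 in AGL6sil and 1.47 in IAA9sil. In AGL6sil against ctrl it was 1.30-fold higher (log2 ratio 0.38, interval 0.31 to 0.44), which was not called, although it ranked 8th of the 91 known miRNAs. Over the 7 scalings this ratio lay between 0.38 and 1.86, above 0 each time and past the threshold under 2 of them. In IAA9sil against ctrl it was lower by a log2 ratio of −1.76 (interval −1.87 to −1.65) and called, with only 3 of the 91 known miRNAs ranked below it. This ratio lay between −1.76 and −1.41 over the 7 scalings, past the threshold under 6 of them and at −1.41 with the clean reads as the scale.

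Predicted miRNAs can carry the sequence of a known family. Mature sequences were at hand for 47 predicted miRNAs, which the study had chosen for their differences between libraries, so that their values below are a description. Compared without gaps over at least 18 bases, 2 of the 47 matched sly-miR395a with at most 4 mismatches, and 0 matched sly-miR398a or sly-miR397-3p. They are shown beside sly-miR395a because they show how close the 3 sequences are, with bases 2 to 8 in capitals.
sly-miR395a: cUGAAGUGuuugggggaacucc
novel_4: uUGAAGUGuuugagggaacuc
novel_81: gCUGAAGUguuuaggggaacu
novel_4 shares the seed of sly-miR395a and differs from it at 2 of 21 aligned bases (C1U and G13A, with the base of sly-miR395a first and positions counted from its 5′ end). novel_81 begins 1 base earlier, so that its seed is shifted, and differs at 1 of 20 aligned bases (G12A). Reads of such near-identical sequences could be divided between these entries by the counting, so that their separate values are uncertain to that extent.

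novel_4 had 1898 reads from AGL6sil, 720 from IAA9sil and 1938 from ctrl, and novel_81 had 64, 5 and 24. In IAA9sil against ctrl the 3 sequences lay on the same side. novel_4 had a log2 ratio of −1.64 (interval −1.77 to −1.52) and novel_81 one of −2.48 (−4.23 to −1.06), beside −1.76 for sly-miR395a. In AGL6sil against ctrl novel_4 differed from sly-miR395a. novel_4 had a ratio of −1.12 (−1.21 to −1.03), while sly-miR395a was above ctrl at 0.38. novel_81 had a ratio of 0.32, with an interval (−0.37 to 1.07) that included 0. The ratio of sly-miR395a to novel_81 was 1.04-fold that of ctrl in AGL6sil, with an interval that includes 1 (0.618 to 1.68). The unscaled reads of novel_4, 1898 and 1938, were close, so the size and direction of its ratio depend on the scale. With the factor of 0.762 for AGL6sil, from the median of known miRNAs, novel_4 would lie above ctrl. Without any scaling, sly-miR395a was 79.3% of the reads of the pair with novel_4 in AGL6sil (78.4 to 80.1), 55.7% in IAA9sil (53.2 to 58.1) and 57.6% in ctrl (56.1 to 59.0). Its ratio to novel_4 was 2.82-fold higher in AGL6sil than in ctrl (interval 2.61 to 3.05), and in IAA9sil against ctrl the interval of this ratio includes 1 (0.926, interval 0.825 to 1.04). The share of sly-miR395a in this pair with the same seed thus had overlapping intervals in IAA9sil and ctrl, and AGL6sil lay above both.

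The phosphate miRNAs were at the limit of detection. sly-miR399 had 2 reads from AGL6sil, 0 from IAA9sil and 1 from ctrl, and sly-miR399b had 0, 0 and 3. A count of 0 allows up to 3 reads, which is 2.05 RPM in AGL6sil and 2.85 RPM in IAA9sil. No count was above 3, so no fold is given, and a difference between the libraries was not detectable at this depth.

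Families linked to other nutrients were looked at for comparison: miR169 and miR393, which respond to nitrogen supply, gave 5 entries, of which 3 passed the read limit. In AGL6sil against ctrl 2 of these 3 were called lower and 0 higher, beside the 42.9% and 4.4% of the known miRNAs, with a median log2 ratio of −1.87 beside −1.20 for the known miRNAs. In IAA9sil 1 was called lower and 0 higher, beside 6.59% and 0%, with a median of −0.17 beside −0.02. The known miRNAs outside the copper, phosphate and sulfate families whose 2 log2 ratios against ctrl lay nearest to those of sly-miR398a, out of 87 compared over the 3 libraries, were sly-miR9474-5p (distance 1.44 in log2 units) and sly-miR482a (1.46). Their ratios were 1.84 and 1.79 in AGL6sil and 0.69 and 0.61 in IAA9sil. Predicted miRNAs were not compared in this way. Nearest to sly-miR395a were sly-miR10533 at a distance of 0.93 and sly-miR160a at 1.12, and for both the ratio in AGL6sil was below 0 (−0.22 and −0.11).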

How the data were processed

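Small RNA of tomato ovaries was sequenced as 1 library per group. The authors removed low-quality and adapter reads, mapped the rest to the tomato genome with Bowtie (version and build not given in the sources used here), matched them to miRBase or to hairpins that miREvo and mirdeep2 predicted, and deposited whole-number read counts per mature miRNA, without normalization. Depth was 1460919 reads for AGL6sil, 1053000 for IAA9sil and 1038064 for ctrl.

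Counts were divided by the library median over all 634 miRNAs relative to ctrl. Log2 ratios had no pseudocount, and a count of 0 was taken at 3 reads. Calls needed 50 reads over the 3 libraries and a log2 ratio of 1.5, the limits of the study. Intervals are 95% Clopper-Pearson intervals of a pair of counts or of a share, and conditional exact intervals of an odds ratio for ratios between libraries of within-library ratios. No p-value was computed, since there are no replicates.

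The alternatives were the scales of DESeq2 1.42.0, edgeR 4.0.16 (TMM), the total count, the median of known miRNAs, the clean reads of the study and no scaling, other read filters, a pseudocount of 1, a floor of 3 under each count, a threshold of 1.5-fold, and calls by the interval. R 4.3.3, Python 3.11.15, numpy 2.4.6, scipy 1.17.1, pandas 2.3.3 and matplotlib 3.10.9 were used. The calls and intervals were run on simulated counts that held counting error alone, with the true scale supplied. This run could not test the error of the scale or the variation between libraries. Every entry of the families is named, and of the other miRNAs those related in sequence or nearest in pattern. The members and lists were chosen with earlier results of these data known. Sequences came from the study's supplementary tables, with at most 4 mismatches over at least 18 bases taken as a match.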

Additional observations from a re-analysis of the deposited data

Results flagged for a closer look

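sly-miR395a lay on opposite sides of ctrl in the silenced libraries, with a log2 ratio to ctrl of 0.38 in AGL6sil and −1.76 in IAA9sil, and the counting interval excluded 0 in both. Its direction held in both under the 7 scalings. The difference between the effects was not tested, because each group is 1 library, and both ratios share the ctrl library. Reads could be divided between sly-miR395a, novel_4 and novel_81 by the counting, so this pattern is uncertain to that extent. novel_4, with the same seed, had ratios to ctrl of −1.12 in AGL6sil and −1.64 in IAA9sil. Those of novel_81 were 0.32, with an interval that included 0, and −2.48. The direction of novel_4 in AGL6sil depends on the scale.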

How the results depend on the processing

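Of 72 recomputed counts of called members, 67 stayed within 1.5 times the value given above. When the whole counting interval had to pass the threshold, the members called higher in AGL6sil than in ctrl were 1, not 2, since sly-miR397-3p was lost, and for the same reason those called higher in AGL6sil than in IAA9sil were 2, not 3. With a 1.5-fold threshold, 1 was called lower in AGL6sil than in ctrl, not 0 (sly-miR408), and 2 were called lower in IAA9sil than in ctrl, not 1. Without a read filter, sly-miR397-5p made those called higher in AGL6sil than in ctrl 3, not 2, and 1 was called higher in IAA9sil than in ctrl, not 0 (sly-miR397-5p, with 6 reads against 1). On the scales of the known miRNAs and of the clean reads, sly-miR395a made those called higher in AGL6sil than in ctrl 3, not 2. With the clean reads as the scale, 0 were called lower in IAA9sil than in ctrl, not 1. In the last case the ratio of sly-miR395a was −1.41. Of 120 recomputed log2 ratios of single members, 77 stayed within the counting interval and 43 did not, and 0 called ratios changed sign. The counting intervals do not include the error of the scale. No paired analysis was possible because each group has 1 library. Depth limits sly-miR397-5p, sly-miR399 and sly-miR399b, with 17, 3 and 3 reads in total.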

Other observations

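One more predicted miRNA, chosen after its values were seen, is related to the miR395 sequences by its opposite strand. The reverse complement of novel_220 matched novel_4 at 15 of 19 aligned bases.
novel_220: gUUCCCUUgaucacuucaug
It is shown, with bases 2 to 8 in capitals, because a partner strand of a miRNA pairs with it in this way. novel_220 had 61 reads from AGL6sil, 15 from IAA9sil and 43 from ctrl. On the log2 scale its ratio was −0.59 for AGL6sil against ctrl (interval −1.17 to 0.01) and −1.74 in IAA9sil against ctrl (−2.69 to −0.86), beside −1.64 for novel_4 and −1.76 for sly-miR395a in IAA9sil.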
